A study of Arabidopsis thaliana with 210 samples.

Results

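A set of 1562 transposable elements was described in single nuclei from shoot apices of Arabidopsis thaliana. An element entered the set when it had at least 1 count in at least 2 of the 8 p1 nuclei prepared with Smart-seq3, and 0 counts in all 190 wells prepared with Smart-seq2. The table listed 31189 elements, so 5.01% of them met this rule. The elements were chosen by their p1 Smart-seq3 counts and by their absence from the Smart-seq2 wells, so those values are given as descriptions only. The 12 p2 nuclei prepared with Smart-seq3 were not used by the rule. Of the 1562 elements, 689 also had a count in at least 1 of these 12 nuclei, so the set was not restricted to p1. Its common property was detection with Smart-seq3 and no counts with Smart-seq2.

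The series asks what ARGONAUTE proteins do in the shoot apical meristem. All wells came from ecotype Col-0 plants at 7 days after germination, with no mutant or treatment named, and every label gives stem cells as the cell type. Each well held 1 sorted nucleus, apart from 2 bulk wells, 50 nuclei each by their labels (the column prefix reads 10), and 2 negative control wells without a nucleus. Smart-seq3 was used for 8 nuclei of p1 and 12 of p2, and Smart-seq2 for 93 nuclei and 1 bulk well of each, with both negative control wells in p2. The meaning of p1 and p2 is not stated in the labels. Both protocols copy polyadenylated RNA into full-length cDNA with a template switch, and Smart-seq3 uses a different switching oligonucleotide and a tag at the 5′ end of the molecule. The labels tie no nucleus to a plant or batch. Each group was therefore 1 sample, whatever its number of nuclei, and groups were compared without a test.

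Transposable elements are DNA sequences that can move or copy themselves within a genome. Retrotransposons copy through an RNA intermediate, and DNA transposons are cut out and reinserted. In Arabidopsis most copies lie in the heterochromatin around the centromeres. They are kept silent there by DNA methylation, by methylation of histone H3 and by small RNAs that ARGONAUTE proteins of the AGO4 clade carry to nascent transcripts. The meristem gives rise to the germ line, so this silencing bears on what the next generation inherits.

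The p1 Smart-seq3 nuclei were shallow on genes and rich in element counts. Counts on genes ranged from 34106 to 337249 per p1 nucleus (median 55305) and from 92940 to 747658 per p2 nucleus (median 605497). Elements of the whole table took 4.56% to 21% of all counts in the p1 nuclei (median 18%) and 0.801% to 7.40% in the p2 nuclei (median 1.97%). In Smart-seq2 nuclei the median was 0.725% for p1 and 2.02% for p2, and the negative control wells were at 18.8% and 29%. The sum of counts on elements varied 1.78-fold between p1 nuclei, from 9043 to 16098, whereas their counts on genes varied 9.89-fold. Element counts in p2 Smart-seq3 nuclei lay between 4642 and 14126, so the groups overlapped in summed element counts. Gene counts overlapped as well, since p1 nuclei 6, 7 and 8 lay within the p2 range. The groups did not overlap in the number of elements of the whole table with a count, which was 1176 to 2269 in p1 and 258 to 577 in p2. Nuclear genes with a count numbered 5637 to 10508 in p1 and 1694 to 3903 in p2, also without overlap.

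The stem cell label was read against marker genes. CLV3, the peptide that marks shoot stem cells, had no count in any of the 8 p1 Smart-seq3 nuclei, and neither had WUS, which marks the organising centre, nor STM, a homeobox gene of the meristem. At the depth of these wells, 0 counts do not show that a gene was not expressed. The mCherry reporter had 15 counts over 5 of the p1 nuclei and 1110 counts over 3 of the p2 nuclei. Scaled to a fixed total of counts on genes (CPM), its level was 17 in p1 and 195 in p2. Of the 12 p2 nuclei, 3 had CLV3 and 3 had STM, and WUS had no count. The vascular genes SUC2, a phloem sucrose transporter, and ATHB8 had counts in all 8 p1 nuclei, with sums of 57 and 54, against 4 and 2 of the p2 nuclei. Nuclear genes as a whole were also seen more widely in p1, in a mean of 25.5% of nuclei per gene against 9.66% in p2. The epidermal genes ATML1 and PDF1 had counts in 7 and 5 p1 nuclei and in 3 and 6 p2 nuclei, and FIL, of organ primordia, in 3 p1 nuclei and no p2 nucleus. The seed storage gene CRA1 had 6 counts over 2 p1 nuclei, the root hair gene EXP7 and the boundary gene CUC2 had 1 count each, and the pollen gene VGD1 and the division gene CYCB1;1 had none. RBCS1A, of photosynthesis, had counts in 7 p1 nuclei and all 12 p2 nuclei. The photosynthesis gene CAB2 had counts in all 20 nuclei. CLV3, WUS and STM thus had no counts in the p1 Smart-seq3 nuclei. In the Smart-seq2 nuclei, CLV3 had counts in 21 of 93 p1 and 6 of 93 p2 nuclei, STM in 42 and 29, and WUS in 2 and 3. There, SUC2 had counts in 34 p1 and 21 p2 nuclei, ATHB8 in 20 and 5, and mCherry in 41 and 11. The part of cell identity in the element counts was not tested.

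Each of the 8 p1 nuclei contributed to the set. A p1 nucleus held counts for 519 to 1041 of them (median 733), and a p2 nucleus for 52 to 162 (median 130). Every p1 nucleus was above every p2 nucleus, although 5 of the p1 nuclei had fewer counts on genes than any p2 nucleus. With each nucleus thinned at random to 43151 counts, the range was 129 to 863 in p1 (median 622.5) and 14 to 68 in p2 (median 21). The rule fixes a high number in p1, so this gap is a description. Plastid and mitochondrial genes took 1.04% to 10.01% of gene counts in p1 and 5.91% to 33% in p2, and their part in the gap was not tested.

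**Figure D1:**
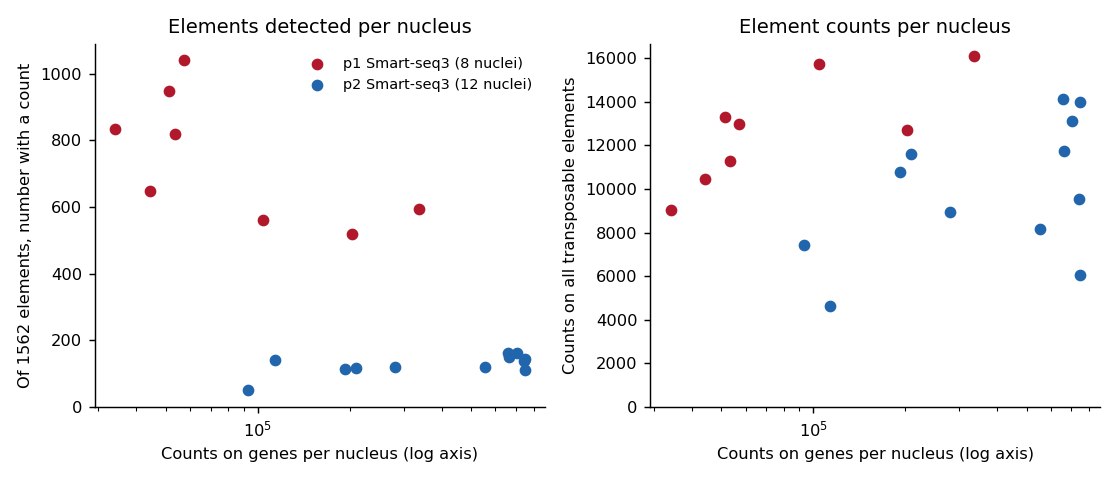
Each point is 1 Smart-seq3 nucleus, by its counts on genes (log axis) and, left, the number of the 1562 elements with at least 1 count or, right, its counts on all elements of the table. The 8 p1 nuclei detected 519 to 1041 of the elements and the 12 p2 nuclei 52 to 162, while the element counts of both groups overlapped.

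Most of these elements were seen at 1 or a few counts. In the p1 nuclei there were 5963 values of at least 1 count, of which 2475 (41.5%) were a single count, 1150 (19.3%) were at least 5 and 111 were at least 20. Summed over the 8 nuclei, an element had a median of 6 counts (quartiles 3 and 13). The sum reached 20 counts in 245 elements, 50 counts in 68 and 100 counts in 22. By recurrence, 535 elements had counts in exactly 2 p1 nuclei, 317 in 3, 223 in 4, 151 in 5, 147 in 6, 99 in 7 and 90 in all 8. The elements just inside the rule, those with 2 nuclei, had a median sum of 3 counts (range 2 to 30). Just outside it, 1147 elements had a count in a single p1 nucleus and none in the Smart-seq2 wells, with a median of 1 count (range 1 to 70). AT1TE64250, with 70 counts in nucleus 5, AT1TE67185, with 69 in nucleus 3, and AT3TE32755, with 29 in nucleus 7, had the most counts of these, and none of the 3 had a count in p2. Another 247 elements missed the rule by 1 count in the Smart-seq2 wells, with a median sum of 8 in the p1 nuclei.

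Absence from the Smart-seq2 wells rested on unequal depth. The 186 Smart-seq2 nuclei held 172830990 counts on genes, and 3 counts of that total, the limit that a count of 0 allows, correspond to 0.0174 CPM, the count scaled to a fixed total of counts on genes. For the bulk wells this limit was 0.938 CPM, and the summed p1 Smart-seq3 level of every 1 of the 1562 elements was above it. The rule fixes that outcome, since its lowest possible sum, 2 counts, is 2.26 CPM in p1 Smart-seq3. The negative control wells held 16629 counts on genes, with a limit of 180 CPM, which the p1 level of 10 elements exceeded. For the other elements, 0 counts in the negative control wells still allow a level like that of p1 Smart-seq3. No negative control well was prepared with Smart-seq3, so what that protocol yields without a nucleus was not measured. These limits cover counting error only.

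A single element, AT2TE04575 on chromosome 2, held 33.7% of the p1 counts of the set and 82.2% of its p2 counts. The files give no family or length for it. Its counts in the p1 nuclei, in the order of their numbers, were 562, 5, 428, 1054, 1390, 2591, 2359 and 2076. In the 12 p2 nuclei they ran from 17 to 3062, with a median of 1647.5. The values were high in nearly all wells of both groups, and nucleus 2 of p1 (5 counts) and nuclei 1 and 11 of p2 (40 and 17 counts) stood far below the rest. In CPM, the level was 147 to 31437 in the p1 nuclei and 183 to 14634 in the p2 nuclei, so the groups overlapped. Over the summed nuclei, its log2 ratio of p1 over p2 was 1.88 (95% interval 1.85 to 1.92, counting error only).

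**Figure D2:**
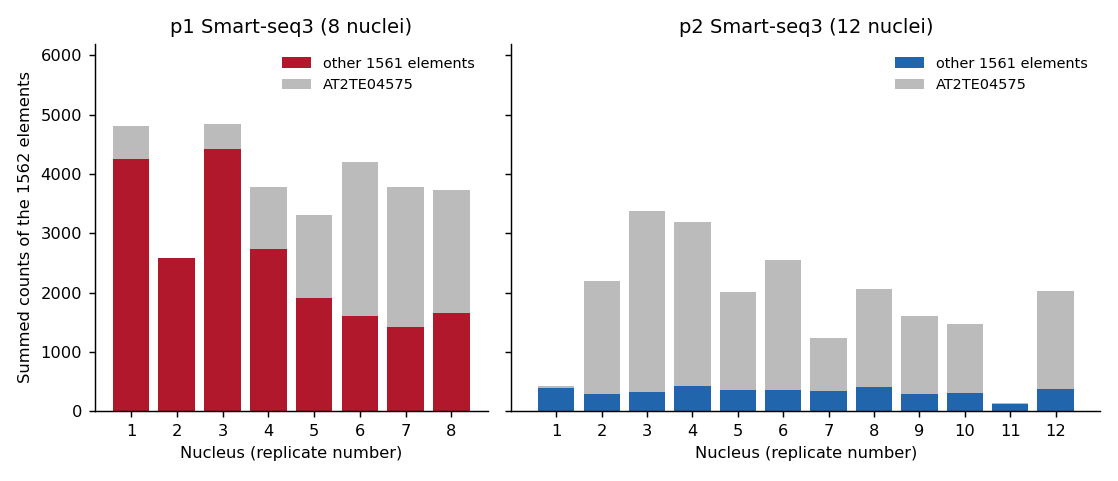
Bars give the summed counts of the 1562 elements in each Smart-seq3 nucleus, split into AT2TE04575 (grey) and all other elements (colour). Without AT2TE04575 the sums were 1418 to 4413 in p1 and 120 to 415 in p2, and nucleus 2 of p1 and nuclei 1 and 11 of p2 had almost none of it.

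The other 1561 elements made up a diffuse remainder that differed more between p1 and p2. Their sum per nucleus was 1418 to 4413 counts in p1 (median 2249) and 120 to 415 in p2 (median 351.5). As a level over the summed nuclei, this was 23239 CPM in p1 (95% interval 22923 to 23559) and 694 CPM in p2 (673 to 716), a log2 ratio of 5.07 (5.02 to 5.11). With AT2TE04575 included, the log2 ratio fell to 3.17 (3.14 to 3.19), with 35066 CPM in p1 and 3906 CPM in p2. The ratio of all 31189 elements was 2.45 (2.44 to 2.46). Levels of the remainder were uneven within p1, from 4780 CPM in nucleus 6 to 82733 CPM in nucleus 1, and nuclei 6 and 7, which had the most gene counts, were the lowest. The rule required p1 counts and asked nothing of p2, so a ratio above 0 is built into the set.

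Several elements combined counts in all 8 p1 nuclei with counts in all 12 p2 nuclei. AT3TE72370 had 70, 78, 38, 93, 70, 106, 54 and 73 counts in the p1 nuclei and 4 to 31 in the p2 nuclei (median 17). Its counts were higher in every p1 nucleus than in any p2 nucleus, and the log2 ratio of levels was 4.18 (3.95 to 4.42). AT5TE67290 went the other way in raw counts, with 17, 27, 8, 23, 44, 64, 62 and 63 in p1 and 27 to 96 in p2 (median 63.5). Its groups overlapped, and its log2 ratio of levels, 1.39 (1.2 to 1.59), was the lowest of the 78 elements of the set with at least 50 counts over both groups.

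AT1TE63050 had 12 to 34 counts in the p1 nuclei (median 24) and 1 to 14 in the p2 nuclei (median 6). AT1TE43740 had 5 to 23 in p1 (median 10.5) and 1 to 11 in p2 (median 5.5), and AT4TE35990 had 2 to 12 in p1 (median 8) and 1 to 21 in p2 (median 8.5). In counts, all 3 overlapped between the groups. In CPM, AT1TE43740 and AT4TE35990 overlapped, and AT1TE63050 did not, with 88.6 to 679 in p1 and 1.34 to 72.8 in p2. AT4TE17805 had 8 to 45 counts in p1 (median 15.5) and 1 to 3 in p2 (median 1.5), with no overlap. Its presence in every p2 nucleus thus rested on 1 to 3 counts per well.

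A second pattern was strong recurrence in p1 with thin counts in p2. AT4TE14185 had 70, 19, 30, 27, 20, 8, 6 and 14 counts in the p1 nuclei and a count in 8 of the 12 p2 nuclei, at most 11. AT3TE38595 had 4 to 43 counts in p1 (median 15.5) and up to 6 in p2, in 8 nuclei. AT3TE76470 had 4 to 32 in p1 (median 12) and up to 3 in p2, in 9 nuclei. For AT2TE13950 the p1 counts were 5 to 28 (median 12.5) and for AT5TE41090 they were 2 to 40 (median 12), with counts in 9 and 8 p2 nuclei. The log2 ratios of these 5 elements lay between 5.40 and 5.80. In each, the p2 median was 1 count per nucleus.

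Other abundant elements were uneven among the p1 nuclei. AT3TE38420 had 0, 0, 1, 90, 76, 2, 77 and 0 counts in the p1 nuclei, so nuclei 4, 5 and 7 held nearly all of them. It was more even in p2, with 0 to 40 counts (median 22.5) in 11 of 12 nuclei. AT5TE47275 had 22, 31, 24, 29, 0, 55, 28 and 29 counts in p1 and 0 to 13 in p2 (median 9). Only nucleus 5 of p1 and nucleus 6 of p2 lacked it.

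**Figure D3:**
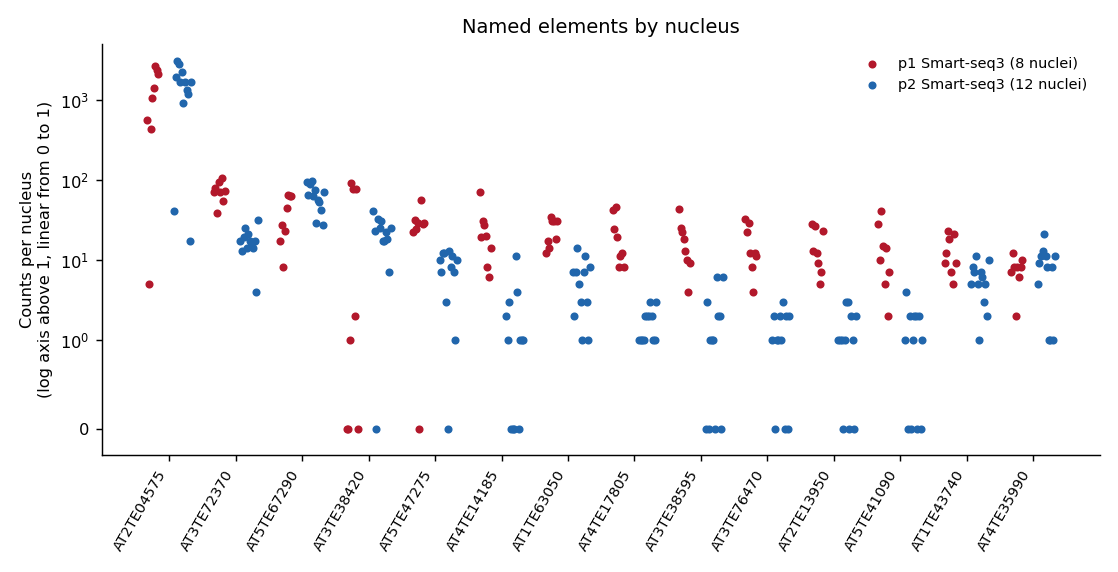
Each point is the count of 1 named element in 1 Smart-seq3 nucleus (red p1, blue p2), on an axis that is logarithmic above 1 and linear from 0 to 1. AT2TE04575 reached 2591 counts in p1 and 3062 in p2, while AT4TE17805 and AT3TE76470 stayed at 3 counts or fewer in p2.

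Whether the elements recur in nuclei outside the rule was read in p2 Smart-seq3. The 689 elements with a p2 count were 44.1% of the set (95% interval 41.6 to 46.6%), against 7.79% of all elements of the table and 4.64% of all elements at 0 in the Smart-seq2 wells. Among elements that were also at 0 in the Smart-seq2 wells but had counts in fewer than 2 p1 nuclei, the share was 1.81%. With the p2 nuclei thinned to 43151 counts, 13.1% of the set had a p2 count, and the share of all elements at that depth is not given here. At full depth, the share was higher at each step of recurrence in p1. It was 1.26% for elements with no p1 nucleus, 11.7% with 1, 21.5% with 2 (18.1 to 25.2%), 36.3% with 3 (31 to 41.8%) and 43.5% with 4 (36.9 to 50.3%). It went on to 58.3% with 5 (50.0 to 66.2%), 71.4% with 6 (63.4 to 78.6%), 82.8% with 7 (73.9 to 89.7%) and 96.7% with 8 (90.6 to 99.3%). Elements share their wells, so these intervals cover counting error over elements and not variation between nuclei.

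**Figure D4:**
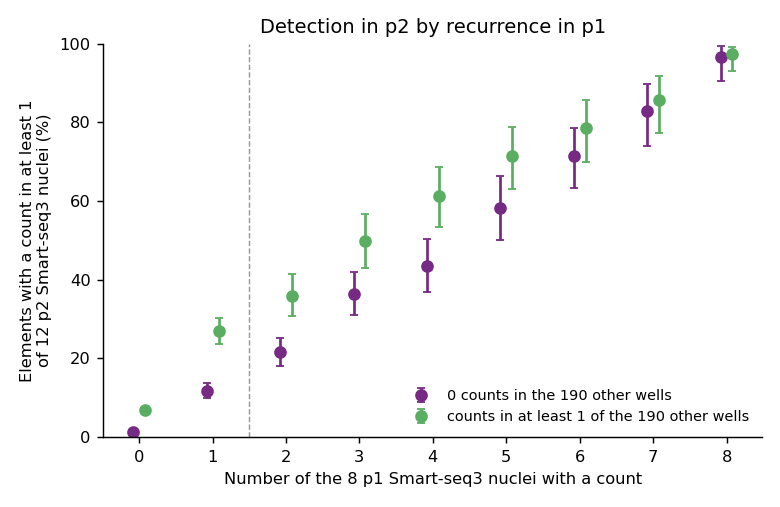
Points give the share of elements with a count in at least 1 of 12 p2 Smart-seq3 nuclei, by the number of p1 Smart-seq3 nuclei with a count, and bars are exact 95% intervals. Elements to the right of the dashed line and in purple are the 1562 of the set, whose share went from 21.5% at 2 nuclei to 96.7% at 8.

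Detection in p2 was shallow. Of 1534 p2 values of at least 1 count, 967 (63%) were a single count and 121 (7.89%) were at least 5. With at least 2 counts required in a p2 nucleus, 18.6% of the set was found there, and with at least 5 it was 2.18%. The shares of all elements at these thresholds are not given here, so these values describe the set only. Only 47 elements had a count in at least 6 p2 nuclei and 7 in all 12. Of the 90 elements in all 8 p1 nuclei, 3 had no p2 count. They were AT5TE44355 with 40 p1 counts, AT5TE39940 with 30 and AT2TE20105 with 28, named after their values were seen. None had more than 11 counts in a p1 nucleus, and 0 counts over the p2 nuclei allow up to 0.526 CPM.

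Elements detected in at least 2 p1 Smart-seq3 nuclei that also had Smart-seq2 counts formed the closest comparison, with 1219 elements. Of these, 61.5% had a p2 Smart-seq3 count (58.7 to 64.3%), above the 44.1% of the set. At a p1 sum of 5 to 9 counts the shares were 51.4% (45.8 to 57.1%) and, in the set, 37.8% (33.2 to 42.4%). At 20 to 49 counts they were 84.2% (78.5 to 88.9%) and 84.7% (78.6 to 89.7%), with intervals that overlapped. The set held 30.5% of all element counts of the p1 Smart-seq3 nuclei and 18.6% of those of the p2 nuclei.

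Among elements with at least 50 counts over both Smart-seq3 groups, 75 of 78 in the set were at least 4-fold higher in p1 than in p2 and none was 4-fold lower. The same calls were made for 62.2% and 15.9% of all elements with that many counts, and for 18.4% and 51.3% of nuclear genes. The median log2 ratio of p1 over p2 was 5.72 in the set, 3.18 over all elements and -2.10 over nuclear genes. The rule favours p1, so nothing about the set is read from these counts. Across the 1562 elements, Spearman's rho between the p1 and p2 sums was 0.53, a description over elements that share the same wells and their depth.

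Applied with p2 in place of p1, the rule found 374 elements, or 1.2% of the table. Of these, 330 were also in the p1 set, which is 88.2% of the smaller set and 21.1% of the larger. With the Smart-seq3 nuclei thinned, the p2 rule found 41 elements, and with at least 5 counts required it found 11. The requirement of 0 counts in Smart-seq2 wells is common to both sets. The p1 rule was not specific to transposable elements, since 1621 nuclear genes met it, 5.51% of the 29417 listed, beside 5.01% of elements. Such genes had a median of 6 counts over the p1 nuclei, as the elements did, and 46.3% of them had a p2 Smart-seq3 count, against 16.4% of all nuclear genes at 0 in the Smart-seq2 wells. Protein-coding genes were 91.2% of them and 90.8% of all nuclear genes, and transcribed pseudogenes were 6.48% and 3.15%. Counts in all 8 p1 nuclei were found for 5.24% of these genes and 5.76% of the elements.

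Where the elements lie was read from their identifiers, which name the chromosome and whose numbers run in order along it. All 5 chromosomes contributed, with 285 elements on chromosome 1, 323 on 2, 349 on 3, 262 on 4 and 343 on 5. This was 3.99% of the listed elements of chromosome 1 and 5.14% to 5.43% on the other chromosomes. Identifiers were split into blocks of 10000 numbers, and on each chromosome the pair of neighbouring blocks with the most listed elements was taken as the densest stretch. That choice did not use the counts. In Arabidopsis, elements are densest around the centromeres, which lie near 1 end of chromosomes 2 and 4. The densest stretch also lay at low numbers there, from 10000 to 29999 on both, and in the middle of the other chromosomes.

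The set was concentrated in these stretches. They held 1092 of the 1562 elements, or 69.9% (95% interval 67.6 to 72.2%), against 47.4% of all listed elements. The direction was the same on all 5 chromosomes, where 5.90% to 8.37% of the listed elements of the densest stretch met the rule, against 2.49% to 3.50% of those outside it. The share was 57.8% (55 to 60.6%) for the 1219 elements with Smart-seq2 counts, and 38.9% (34.1 to 43.9%) for the 398 elements seen most widely with Smart-seq2, in 10% or more of its nuclei. Within the set it was 71.6% (68 to 74.9%) for elements with a p2 count and 68.6% (65.4 to 71.7%) for those without. Length and copy number of the elements, which could differ between these stretches and the arms, were not analysed here.

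**Figure D5:**
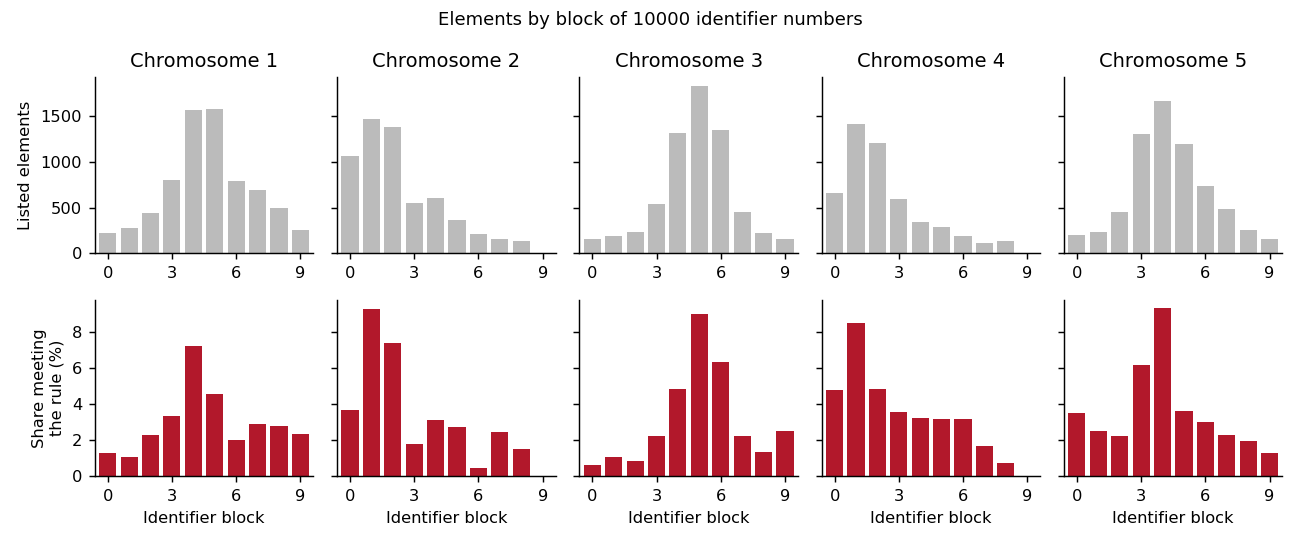
For each chromosome, bars give the listed elements (top) and the share that met the rule (bottom) by block of 10000 identifier numbers, block 0 being the lowest numbers. Blocks with the most listed elements also had high shares, and over the densest stretches 5.90% to 8.37% of elements met the rule.

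Members were mostly not adjacent to one another. A neighbour in identifier order that also met the rule was found for 246 elements (15.7%), against 9.62% of all listed elements and 14.1% of those in the densest stretches. There were 111 runs of 2 and 8 runs of 3, and no longer run. The elements of the set, though not their counts, were thus spread over many separate places in the list. Their share with such a neighbour was close to that of all elements in the densest stretches.

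Estimated counts need not be whole, as where a program divides reads among similar features, and how these were made is not stated. In the p1 nuclei, 37% of the values of the set were not whole, with 26.7% to 46.6% per nucleus. For the other elements this was 45.5%, and for nuclear genes 33.5%. In the p2 Smart-seq3 nuclei the shares were 13.4%, 29.4% and 10.9%. Counts of single elements are uncertain where near-identical copies could share reads. For 686 elements (43.9%) every p1 value was whole, and 230 of them (33.5%) had a p2 count, against 459 of the other 876 (52.4%). An element seen in more p1 nuclei has more values that can be fractional, and such elements also had p2 counts more often. The part of recurrence in this contrast was not tested.

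Genes that silence transposable elements, or that counter silencing, as ROS1 and IBM1 do, were read in the same nuclei, from a list of 27. In p1 Smart-seq3, 25 of 27 had a count in at least 1 nucleus, and the median gene was seen in 37.5% of nuclei. In p2 Smart-seq3 these values were 23 of 27 and 16.7%, and with every nucleus thinned to 43151 counts the medians were 37.5% and 8.33%. With at least 5 counts required, the medians were closer, at 12.5% in p1 and 8.33% in p2. Nuclear genes as a whole were also seen more often in p1. The mean share of nuclei per gene was 25.5% in p1 and 9.66% in p2 over all nuclear genes, and 50.5% and 17.3% over the list. Thinned, these means were 19% and 5.51% over all nuclear genes, and 42.1% and 8.02% over the list. In Smart-seq2 nuclei all 27 had counts, with medians of 25.8% in p1 and 16.1% in p2. NRPE1, the largest subunit of RNA polymerase V, MOM1, a silencing factor that acts without large changes in DNA methylation, and MORC6, an ATPase that compacts heterochromatin, had counts in all 8 p1 nuclei. Their sums were 155, 103 and 72 counts. In p2 they had 75, 522 and 5 counts, over 7, 6 and 2 of the 12 nuclei.

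Of the genes that maintain DNA methylation, MET1, the methyltransferase for CG sites, had 8 counts over 3 p1 nuclei and none in p2. CMT3, for CHG sites, had 4 counts over 3 p1 nuclei and 687 over 2 p2 nuclei. DDM1, the remodeller that opens heterochromatin to both enzymes, had 1 count in 1 p1 nucleus and 44 counts in 2 p2 nuclei. DRM2, which methylates sites that small RNAs target, had 16 counts over 6 p1 nuclei and 70 over 2 p2 nuclei. Of its partners, RDR2, which makes double-stranded RNA, had 16 counts over 7 p1 nuclei and 48 over 4 p2 nuclei. DCL3, which dices it, had 7 over 3 and 121 over 2, and AGO4 had 73 over 5 and 621 over 5. Counts on genes summed to 884884 in p1 and 5706797 in p2, so a larger p2 sum need not be a higher level. DRM2 and RDR2 were both at 18.1 CPM in p1, against 12.3 and 8.41 CPM in p2. MOM1 was at 116 CPM in p1 and 91.5 CPM in p2. Lower in p1 than in p2 were AGO4 (82.5 and 109 CPM), DCL3 (7.91 and 21.2) and DDM1 (1.13 and 7.71). In levels the list went both ways, with a log2 ratio of p1 over p2 of 3.74 for NRPE1 and -4.74 for CMT3. Among other genes of the list, IBM1, a histone demethylase, and H1.2, a linker histone, had no count in p1 and 16 and 59 counts in p2, whereas all 242 counts of the linker histone H1.1 came from 1 p1 nucleus. Single nuclei carried several of the sums. In p1, 68 of the 73 counts of AGO4 and 87 of the 155 of NRPE1 came from 1 nucleus each. In p2, 1 nucleus held 650 of the 687 counts of CMT3, and 1 nucleus held 456 of the 621 of AGO4. The same was true of 69 of the 70 p2 counts of DRM2, 120 of the 121 of DCL3 and 42 of the 44 of DDM1. The ratio of CMT3 thus rested mostly on 1 p2 nucleus.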

How the data were processed

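Estimated counts, not normalized, were deposited for each feature and all 210 wells in 1 table. The submitters' processing notes name the TAIR10 build and DESeq2, with no role given. The aligner and counting program are not given in the sources used here. Values were rounded to whole numbers, and the table was split into 29417 nuclear genes, 279 plastid and mitochondrial genes, 31189 transposable elements and 1 reporter. CPM was scaled to the counts on genes of the same wells. Sums carry exact Poisson and shares exact Clopper-Pearson intervals at the 95% level, and ratios of sums the exact binomial interval of their counts. Whether molecular identifiers entered the deposited counts is not stated in the sources used here. Intervals and limits cover counting error only, and a count of 0 was set at 3. Thinning drew without replacement (seed 7). No well was removed and no doublet caller was run, since each well received 1 sorted nucleus.

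The elements and gene lists were chosen with earlier results of these data known. Named were the 10 elements in the most p1 Smart-seq3 nuclei, the 5 with the most counts, the 5 in the most p2 nuclei and the 3 with the most counts among those missing the rule by 1 nucleus, with the genes of the silencing list. Genes near elements, also part of that rule, were not named. Gene types came from the TAIR10.1 annotation. It was not used to place elements, so their coordinates, families, lengths, sequences and neighbouring genes were not analysed here. Selection of elements was checked on simulated data. Python 3.11.15, numpy 2.4.6, pandas 2.3.3 and scipy 1.17.1 were used.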

Additional observations from a re-analysis of the deposited data

Results flagged for a closer look

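Of 28 quantities examined over the 8 p1 Smart-seq3 nuclei, 1 had a nucleus far from the others. AT4TE14185 had 70 counts in nucleus 1, and the next highest nucleus had 30. About 1 in 20 such groups is set apart by chance, and 1 of 28 is no more than that.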

How the results depend on the processing

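The number of elements was 1562 with excluded wells at 0 as deposited and 1184 with p1 nuclei thinned. It moved to 831 with at least 2 counts, 266 with at least 5, 2709 with at least 1 p1 nucleus, 1027 with at least 3, and 873 with p2 Smart-seq3 also at 0. Leaving out 1 p1 nucleus gave 1339 to 1485 elements, of which 44.6% to 47.9% had a p2 count. That share was 18.6% with at least 2 p2 counts, 2.18% with at least 5, 13.1% with p2 thinned and 55.9% for elements in at least 3 p1 nuclei. The median of elements per p1 nucleus was 117 with at least 5 counts. Nuclear genes meeting the rule numbered 217 with at least 5 counts, and p2 elements 11, or 41 when thinned. With a tolerance of 0.01, 31.7% of p1 values were not whole. Alternatives chosen after seeing the data gave log2 ratios of p1 over p2 for the summed set of 5.07 without AT2TE04575, 3.04 per count on all features, 3.12 per count on nuclear genes, 3.43 as a mean over nuclei, and 4.10 without nuclei 6 and 7. No paired analysis was possible because no result comes from a test and the replicate numbers only name nuclei. The distance to genes was not run. Depth limits most elements, which rest on few counts.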

Other observations

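The nuclear gene with the most p1 counts among those that met the same rule was AT5G22555, annotated as protein-coding and picked after its values were seen. It had 509 to 892 counts in each of the 8 p1 Smart-seq3 nuclei (median 663.5) and 0 to 5 in each of the 12 p2 nuclei (median 1.5). Unlike AT2TE04575, which was high in both Smart-seq3 groups, this gene did not overlap between them. It was picked for its p1 counts, so its high p1 values are built in and the gap is a description.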
